A study of Homo sapiens with 6 samples.

Results

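The heat shock proteins and endoplasmic reticulum (ER) chaperones were examined as a set of 40 genes listed by name and grouped mostly by their place in the cell. Of these, 37 had a measurement among the 11963 genes of the arrays. They were 15 of 17 cytosolic members (HSF1 included), 3 of 3 mitochondrial members and 19 of 20 ER members. XBP1 and DDIT3, transcription factors of the ER stress response and not ER residents, were counted with the ER members. HSPA8, AHSA1 and DNAJB11 were not analysed here. The cells were A549, an established human lung adenocarcinoma line with epithelial features. The arrays formed 3 groups of 2: cells transfected with a pCMV5 expression plasmid for human PIAS3, a protein inhibitor of the transcription factor STAT3, cells that received a small interfering RNA (siRNA) against STAT3, and control cells given epidermal growth factor (EGF). By the design text every group was kept without serum and then given EGF, whereas only the control titles name EGF. Flasks were seeded 12 h earlier in 10% serum, and harvest followed transfection by 48 h. The control cells were untransfected, so an effect of transfection and an effect of PIAS3 or of STAT3 siRNA cannot be told apart in either comparison with control. Separate cultures behind the replicates are not stated, and each p-value therefore reflects array-to-array spread that could be technical.

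Chaperones hold unfolded proteins and help them reach their native shape. In the cytosol and nucleus, heat shock factor 1 (HSF1) induces the HSP70, HSP90, HSP40 and small heat shock protein genes when unfolded proteins accumulate. In the ER lumen the same load is sensed by IRE1, PERK and ATF6, and the unfolded protein response then induces chaperones through XBP1 and ATF6 and the stress factor DDIT3 (CHOP) through ATF4. Tumour cells often depend on both systems, and STAT3 and HSF1 can bind some of the same chaperone promoters.

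The promoters of some members carry the elements of these responses. They are printed because one kind was found in ER members alone and the other in cytosolic and mitochondrial members alone, among the windows searched. RefSeq windows of 250 bases before the start site (GRCh38.p14) existed for 36 of the 40 listed genes. Those of CRYAB, FKBP4, HSF1 and PDIA3 were not analysed here. The ER stress response element (ERSE: CCAAT, any 9 bases, then CCACG) or ERSE-II (ATTGG, any 1 base, then CCACG), on either strand, was found in 9 of 19 ER members with a window, in 0 of 17 cytosolic and mitochondrial members, and in 43 of 27305 genes (0.157%). Capitals mark the fixed letters, and each element is read 5′ to 3′ along the strand that carries it. HYOU1 holds another ERSE-II, at chr11:119057274-119057284, that is not printed.
HSPA5, chr9:125241391-125241409: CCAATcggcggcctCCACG
XBP1, chr22:28800603-28800621: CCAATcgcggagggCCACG
PDIA6, chr2:10812853-10812871: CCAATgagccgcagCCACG
CANX, chr5:179698778-179698796: CCAATcttcacactCCACG
CALR, chr19:12938384-12938402: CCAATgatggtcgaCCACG
HSP90B1, chr12:103930216-103930234: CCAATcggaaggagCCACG
HSP90B1, chr12:103930321-103930339: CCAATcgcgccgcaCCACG
HERPUD1, chr16:56932025-56932035: ATTGGgCCACG
SDF2L1, chr22:21642114-21642124: ATTGGtCCACG
HYOU1, chr11:119057380-119057390: ATTGGaCCACG

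A heat shock element of 3 alternating units (GAA, TTC and GAA with any 2 bases between neighbours, either strand) was present in 5 of the 36 windows and in 152 of 27305 genes (0.557%). All 5 were among the 17 cytosolic and mitochondrial windows, and 0 of the 19 ER windows held one. Most windows of the set thus held neither this element nor an ERSE or ERSE-II. The shorter form of 2 units (GAANNTTC, which lies inside every 3-unit element) was present in 10 of 36 windows and in 7.05% of genes, and it added HSPB1, HSPB8, DNAJA1, DNAJB1 and CANX. A palindrome read by STAT factors (TTCNNNGAA) was found in 0 of 36 windows and in 8.09% of genes. A match is a description of letters and not a shown binding site. For each gene 1 match of 3 units is printed. HSP90AB1, HSPA8 and HSPD1 each hold another, which in HSPD1 overlaps the printed one.
HSPD1, chr2:197500073-197500085: GAActTTCcaGAA
HSP90AB1, chr6:44247778-44247790: GAAtcTTCcaGAA
HSP90AA1, chr14:102087120-102087132: GAAccTTCcgGAA
DNAJB6, chr7:157336873-157336885: GAAccTTCgcGAA
HSPA8, chr11:123062354-123062366: GAAagTTCcaGAA

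The array medians lay between 6.63 and 6.72 on the log2 scale of the deposited values. KRT7, KRT8 and KRT18, keratins of simple epithelium, read 12.39 or higher in every array. Of 12 measured epithelial markers, 6 lay above the array median in all 6 arrays and 4 below it. Others of this list varied, and KRT19 read 11.16 and 11.02 in control, 10.76 and 9.42 with siRNA and 9.02 and 9.34 with PIAS3. CDH1 (E-cadherin) read 8.31 and 8.19, 8.37 and 8.60, and 9.54 and 9.14, and EPCAM 7.24 and 7.22, 7.12 and 6.04, and 6.36 and 6.78. Of the alveolar type II markers 3 of 7 lay above it, and NKX2-1, the lineage factor of these cells, read 5.60 to 6.02, below it. Below the array median in all arrays were 9 of 11 leukocyte, 9 of 11 fibroblast and 7 of 7 endothelial markers. The summed log2 level of the fibroblast list was 63.0 to 63.6 in the control arrays, 59.9 to 63.8 in the siRNA arrays and 59.5 to 60.5 in the PIAS3 arrays. Most of this was SPARC, a matrix glycoprotein, which read 9.95 and 10.14 in control, 9.90 and 7.05 with siRNA and 6.48 and 7.05 with PIAS3. The summed level of the leukocyte list was 57.1 to 57.2, 56.3 to 57.7 and 57.7 to 58.8. No marker was at 0 on this scale, and the part of these shifts in the differences below was not tested.

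The targeted genes were read first. STAT3 differed from control by -0.38 ± 0.18 (log2, SE) in the siRNA group and by -0.53 ± 0.18 in the PIAS3 group, with adjusted p = 0.9998 and 0.254 (limma, all 6 arrays, Benjamini-Hochberg over 22215 probe sets). PIAS3 itself, read from its brightest probe set, differed by 0.04 ± 0.11 in the cells given its plasmid. Whether that probe set detects the transcript of the plasmid was not tested. The library labelled PIAS3 replicate 1 stood apart: 26 interferon-stimulated genes had a median 3.81 log2 units above the control mean there, against 0.03 in PIAS3 replicate 2. The 2 PIAS3 arrays differed by an SD of 0.28 over the members, and the siRNA arrays by 0.21. STAT3 siRNA replicate 2 lay closer to PIAS3 replicate 2 (SD 0.19 over all probe sets) than to its own replicate (0.25). In turn, siRNA replicate 1 lay closer to both control arrays (SD 0.21 and 0.20) than to siRNA replicate 2. The siRNA means below thus average 2 arrays that differ in this way.

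No measured chaperone gene passed an adjusted p of 0.05 in any of the 3 comparisons. With PIAS3, 0 of 37 members passed against control, where 15 of 11963 genes (0.125%) did. At an unadjusted p under 0.05, CRYAB and HERPUD1 were higher and HSPB1 and HSPB8 lower. These 4 make up 10.8% of the members, beside 14.6% of all genes (7.13% higher, 7.44% lower). With STAT3 siRNA, 0 of 37 members passed the adjusted threshold (0.00836% of genes did). HSPB8 alone reached an unadjusted p under 0.05, which is 2.70% of members beside 5.37% of genes (2.32% higher, 3.06% lower). Between PIAS3 and STAT3 siRNA, 0 of 37 members and 0 of 11963 genes (0.00%) passed, and CRYAB, HERPUD1 and XBP1 were higher with PIAS3 at an unadjusted p under 0.05 (8.11% of members beside 4.19% of genes higher and 3.83% lower, 8.02% in all). The PIAS3 and control arrays did not overlap for 19 of 37 members (51.4%), beside 46.1% of genes. This was so for 16 members (43.2%) with siRNA against control, beside 39.0% of genes, and for 12 (32.4%) between the treatments, beside 34.5%. Separation of the groups was thus about as frequent among the members as among all genes.

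**Figure D1:**
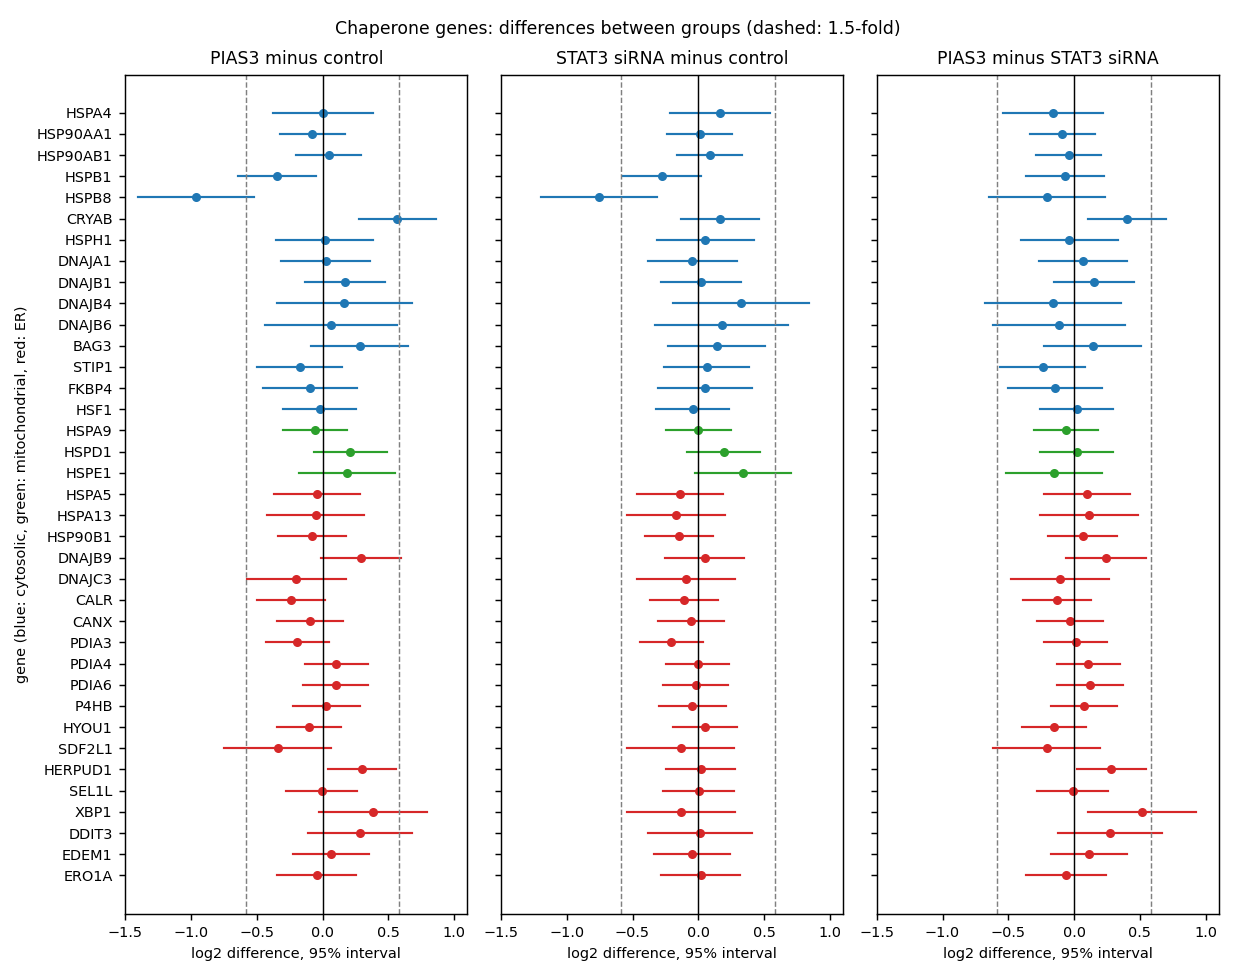
Log2 differences of the 37 genes in the 3 comparisons (points) with 95% intervals (lines), with dashed lines at a 1.5-fold difference. HSPB8 sits farthest below 0 in both comparisons with control, and CRYAB farthest above 0 in PIAS3 against control.

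The precision shows how large a difference in the brightest probe set could have been missed. It does not cover differences between probe sets of a gene. CALR counted as within the bound below with PIAS3 (-0.50 to 0.02), while its other probe sets differed by -0.68 and -0.21. For 28 of 37 members the 95% interval of PIAS3 against control lay within 1.5-fold in either direction, a share of 75.7% beside 75.0% of all genes. For STAT3 siRNA against control this held for 33 members (89.2% against 84.2% of genes), and for PIAS3 against STAT3 siRNA for 30 (81.1% against 79.6%). The members outside the bound with PIAS3 against control were HSPB1, HSPB8, CRYAB, DNAJB4, BAG3, DNAJB9, SDF2L1, XBP1 and DDIT3. The median size of the difference was 0.10 over the members and 0.12 over all genes with PIAS3, and 0.06 against 0.09 with siRNA.

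**Figure D2:**
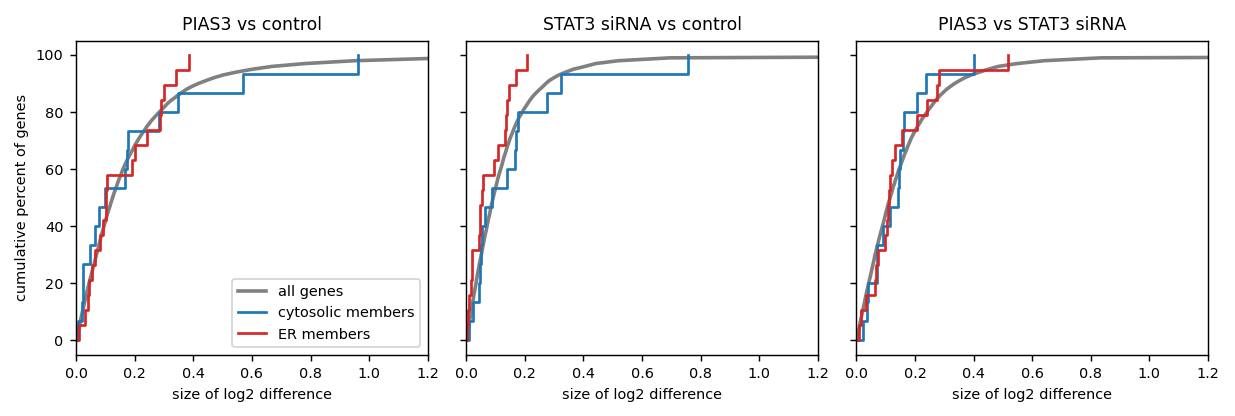
Cumulative percent of genes (y axis) by the size of the log2 difference (x axis) in each comparison, for all genes (grey), cytosolic members and ER members. In PIAS3 against control the median size is 0.10 over all members and 0.12 over all genes. In STAT3 siRNA against control the ER line rises earlier, with a median size of 0.05 beside 0.09 over all genes.

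The cytosolic small heat shock proteins, which bind unfolding proteins without using ATP, gave the lowest and the highest difference of PIAS3 against control. HSPB8 (Entrez gene 26353), partner of BAG3 in the autophagy of misfolded protein, read 8.38 and 8.33 in the control arrays, 7.81 and 7.38 with siRNA and 7.18 and 7.60 with PIAS3. All 4 transfected arrays lay below both controls, and the siRNA and PIAS3 arrays overlapped each other. The difference from control was -0.96 ± 0.19 with PIAS3 (SE, n = 2 per group, 1.95-fold lower, limma adjusted p = 0.102) and -0.76 ± 0.19 with siRNA (adjusted p = 0.709). Without PIAS3 replicate 1 the PIAS3 difference was -0.75, and without PIAS3 replicate 2 it was -1.17, each from the 1 PIAS3 array left. In a bulk sample, fewer cells that express a gene and less RNA of it per cell cannot be told apart.

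HSPB1 (HSP27, Entrez gene 3315), the abundant small heat shock protein of epithelial cells, read 12.71 and 12.58 in control, 12.46 and 12.28 with siRNA and 12.20 and 12.40 with PIAS3. Again the 4 transfected arrays lay below both controls. The difference was -0.35 ± 0.13 with PIAS3 (adjusted p = 0.287) and -0.28 ± 0.13 with siRNA (adjusted p = 0.9998). The PIAS3 difference was no longer under an unadjusted p of 0.05 without PIAS3 replicate 1 (-0.25), without either control array (-0.28 and -0.42) or with cyclic loess (-0.27).

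CRYAB (αB-crystallin, Entrez gene 1410) went the other way, with 6.25 and 6.09 in control, 6.28 and 6.40 with siRNA and 6.85 and 6.63 with PIAS3. Both PIAS3 arrays were above all 4 others. The difference was 0.57 ± 0.13 against control (1.48-fold, adjusted p = 0.123) and 0.40 ± 0.13 against siRNA (adjusted p = 0.607). Against control, with 1 PIAS3 array left, it was 0.46 without PIAS3 replicate 1 and 0.68 without PIAS3 replicate 2. Against siRNA it was 0.29 without PIAS3 replicate 1 and 0.34 without siRNA replicate 1, neither under an unadjusted p of 0.05. These values lie near or below the array medians, where differences of such arrays are compressed.

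The 200 bases before the HSPB1 and HSPB8 start sites are printed. Both genes lay below control in all 4 transfected arrays, and each holds 2 facing heat shock units, in capitals, at a single place. CANX, an ER member, also met these conditions and is not printed. Over the 9 measured members with the 2-unit form in a window the median PIAS3 difference from control was 0.02. Over the 24 measured members with a window but without this form it was 0.01.
HSPB1, chr7:76302473-76302672, plus strand: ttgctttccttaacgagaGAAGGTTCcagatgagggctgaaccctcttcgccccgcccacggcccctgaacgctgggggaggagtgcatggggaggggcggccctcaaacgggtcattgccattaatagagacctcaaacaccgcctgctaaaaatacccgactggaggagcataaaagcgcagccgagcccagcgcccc
HSPB8, chr12:119178731-119178930, plus strand: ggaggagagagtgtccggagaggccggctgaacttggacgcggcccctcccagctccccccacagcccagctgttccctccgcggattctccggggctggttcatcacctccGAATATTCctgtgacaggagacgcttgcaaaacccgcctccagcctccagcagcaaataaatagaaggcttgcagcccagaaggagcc

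**Figure D3:**
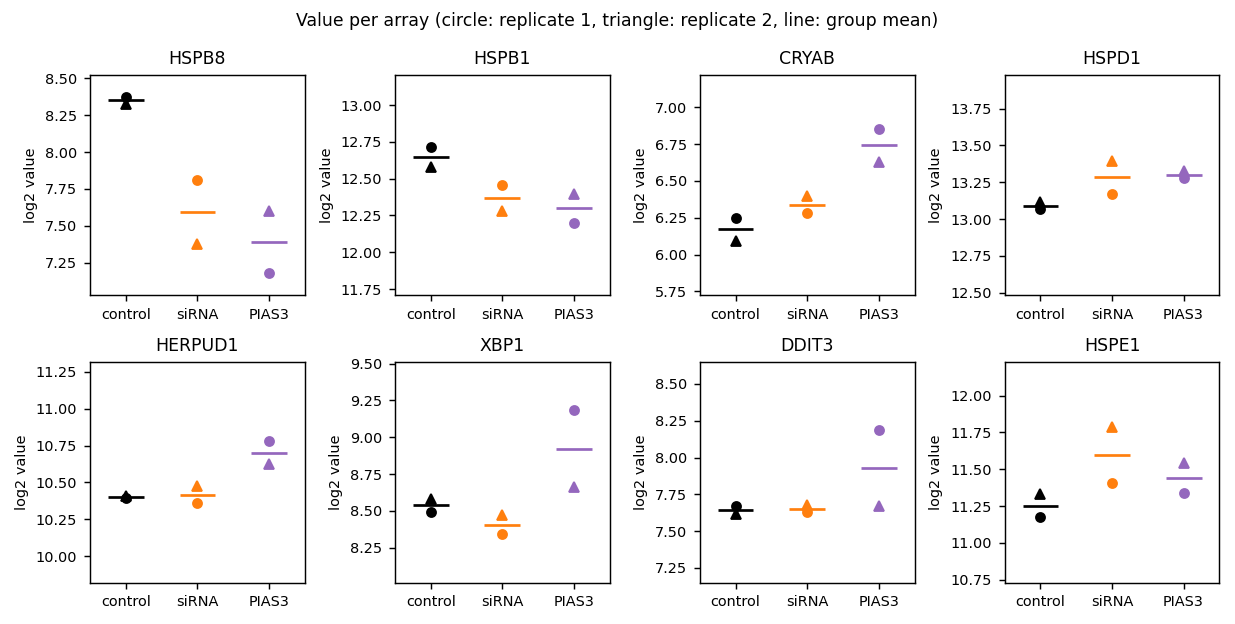
Log2 value in each array (circle, replicate 1; triangle, replicate 2) and group mean (line) for 8 genes. The y axes span equal ranges around different centres. HSPB8 and HSPB1 are lower in all 4 transfected arrays, and the PIAS3 mean of XBP1 and DDIT3 is carried by replicate 1.

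Read from their brightest probe sets, none of the other cytosolic members reached an unadjusted p under 0.05 in any comparison. HSP90AA1, the inducible HSP90, read 13.48 and 13.46 in control, 13.45 and 13.50 with siRNA and 13.45 and 13.33 with PIAS3. Its difference with PIAS3 was -0.08 (95% interval -0.33 to 0.17, limma adjusted p = 0.825). The constitutive HSP90AB1 differed by 0.05 with PIAS3 and 0.09 with siRNA. HSF1, the factor that drives these genes, read 9.53 and 9.38 in control, 9.44 and 9.38 with siRNA and 9.35 and 9.52 with PIAS3, and its groups overlapped. Its PIAS3 difference of -0.02 had a 95% interval of -0.30 to 0.26. HSPH1 and HSPA4, nucleotide exchange factors of HSP70, differed by 0.02 and 0.01 with PIAS3. The HSP40 cochaperones DNAJA1, DNAJB1, DNAJB4 and DNAJB6 differed by 0.02, 0.17, 0.17 and 0.06 with PIAS3 and by -0.05, 0.02, 0.32 and 0.18 with siRNA. DNAJB4 exceeded the mean of the controls by 0.34 in PIAS3 replicate 1 and by 0.65 in siRNA replicate 1, and was close to it in both second replicates. DNAJB6 differed from the control mean by -0.24 in PIAS3 replicate 1 and by 0.36 in PIAS3 replicate 2. BAG3, which links HSP70 to autophagy and pairs with HSPB8, differed by 0.28 ± 0.16 with PIAS3, and by 0.17 without PIAS3 replicate 1. STIP1, the adaptor between HSP70 and HSP90, and FKBP4, an HSP90 immunophilin, differed by -0.18 and -0.10. Their other probe sets gave PIAS3 differences of -0.44 and -0.19 from control and -0.49 and -0.38 from siRNA. A dimmer probe set of HSP90AA1 gave -0.58 from siRNA. At an unadjusted p under 0.05 (limma), dimmer probe sets of HSP90AA1, STIP1, FKBP4, HSF1 and HSPA4 were lower with PIAS3 than in control, siRNA or both.

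As a group, 3 of 15 cytosolic members reached an unadjusted p under 0.05 with PIAS3, 1 of 15 with siRNA and 1 of 15 between the 2 treatments. These are 20.0%, 6.67% and 6.67%, beside 14.6%, 5.37% and 8.02% of all genes. The median difference was 0.02 with PIAS3 and 0.05 with siRNA, beside -0.00 for all genes in PIAS3 against control. With the mean of all probe sets of a gene in place of the brightest, the PIAS3 median was -0.09, and with cyclic loess it was 0.10.

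The mitochondrial chaperonin pair had means above control in both transfected groups. HSPD1 (HSP60, Entrez gene 3329), the folding chamber of the matrix, read 13.07 and 13.12 in control, 13.17 and 13.40 with siRNA and 13.28 and 13.33 with PIAS3. HSPE1 (HSP10, Entrez gene 3336), its lid, read 11.17 and 11.33, 11.41 and 11.78, and 11.34 and 11.54 in the same order. In both genes the 4 transfected arrays exceeded both controls, by margins that for HSPE1 were as small as 11.34 against 11.33. HSPD1 differed by 0.21 ± 0.12 with PIAS3 and 0.19 ± 0.12 with siRNA, and HSPE1 by 0.19 ± 0.16 and 0.34 ± 0.16, all above an unadjusted p of 0.05. Without siRNA replicate 2 the siRNA differences were 0.08 for HSPD1 and 0.15 for HSPE1. Without PIAS3 replicate 2 the PIAS3 difference of HSPE1 was 0.09. HSPA9, the matrix HSP70 that threads imported proteins through the membrane, differed by -0.06 ± 0.10 with PIAS3 and 0.00 ± 0.10 with siRNA. Of the 3 mitochondrial members, read from their brightest probe sets, 0 reached an unadjusted p under 0.05 in any comparison. Of all genes, 14.6%, 5.37% and 8.02% did so with PIAS3, with siRNA and between the treatments. The other HSPD1 probe set differed from control by 0.38 with siRNA (limma unadjusted p = 0.0313, adjusted p = 0.9998) and by 0.27 with PIAS3.

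HSPE1 and HSPD1 lie head to head on chromosome 2 and share the stretch between their start sites, printed here because both genes were above control in all 4 transfected arrays. The HSPD1 heat shock element shown above lies outside it, before another HSPD1 start site further downstream.
Between the starts, chr2:197500275-197500378, plus strand: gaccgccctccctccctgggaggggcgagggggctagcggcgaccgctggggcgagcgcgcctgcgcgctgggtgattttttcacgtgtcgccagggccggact

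Across the set, all 4 transfected arrays lay above both controls for 3 members, CRYAB, HSPD1 and HSPE1, where 9.01% of all genes did so. They lay below both controls for 5 members, HSPB1, HSPB8, CALR, CANX and PDIA3, where 10.7% of genes did so. The 2 comparisons with control share the control arrays, so their values are given side by side and not as separate evidence.

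**Figure D4:**
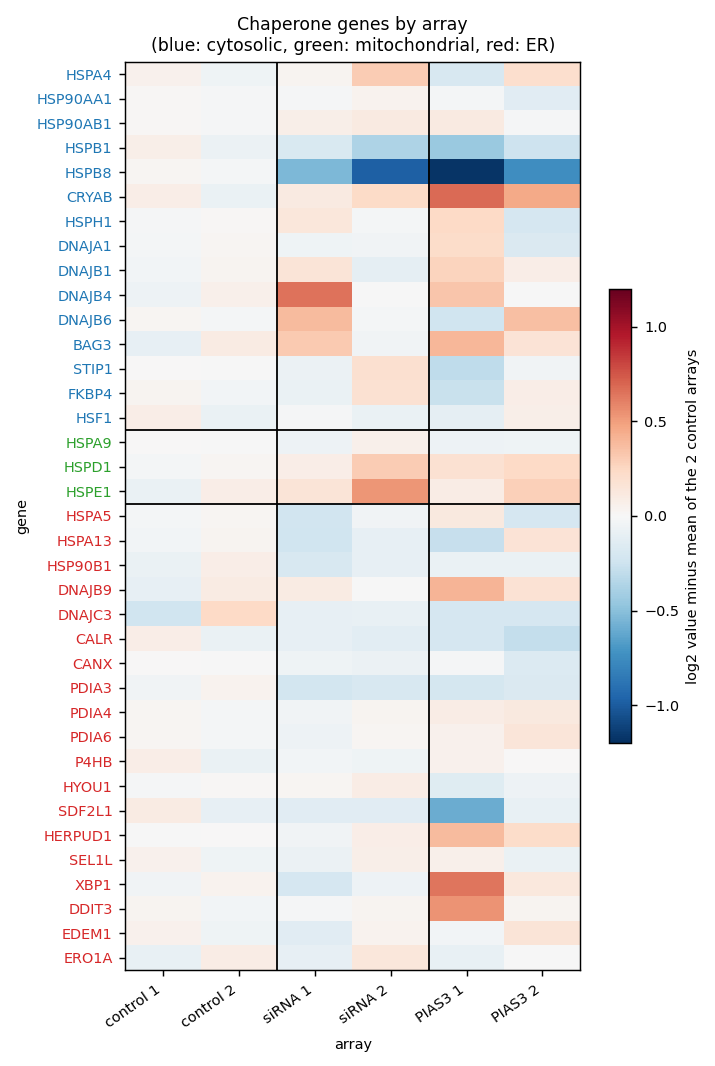
Log2 value of each of the 37 genes (rows) in each of the 6 arrays (columns), as the difference from the mean of the 2 control arrays (colour). HSPB8 is below control in all 4 transfected arrays. PIAS3 replicate 1 holds the widest spread among ER members, from -0.59 (SDF2L1) to 0.64 (XBP1).

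Among the ER members, each read from its brightest probe set, HERPUD1 and XBP1 were the ones that reached an unadjusted p under 0.05 in some comparison. HSPA5 (BiP, Entrez gene 3309), the ER HSP70 and standard readout of the unfolded protein response, read 12.21 and 12.27 in control, 12.01 and 12.20 with siRNA and 12.36 and 12.04 with PIAS3. The PIAS3 arrays lay on both sides of the controls. The difference was -0.04 (95% interval -0.37 to 0.29, limma adjusted p = 0.947) with PIAS3 and -0.14 (-0.47 to 0.19) with siRNA. HSP90B1 (GRP94), the ER HSP90, differed by -0.08 and -0.15. HYOU1, the exchange factor of BiP, differed by -0.10 and 0.05. The lectin chaperones of glycoproteins, CALR and CANX, differed by -0.24 ± 0.11 and -0.09 with PIAS3 and by -0.11 and -0.06 with siRNA. Their partner PDIA3 differed by -0.19 ± 0.10 and -0.21 ± 0.10. The other disulphide isomerases PDIA4, PDIA6 and P4HB differed by 0.10, 0.10 and 0.03 with PIAS3, and the oxidase ERO1A by -0.04. None of these brightest probe sets reached an unadjusted p under 0.05. The dimmest CALR probe set did (limma), with PIAS3 differences of -0.68 from control and -0.59 from siRNA. So did a dimmer CANX probe set, with a PIAS3 difference of -0.32 from siRNA. The remaining CALR and CANX probe sets did not.

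HERPUD1 (Entrez gene 9709), a membrane protein of the ER degradation complex, read 10.39 and 10.41 in control, 10.36 and 10.48 with siRNA and 10.78 and 10.62 with PIAS3. Both PIAS3 arrays were above all others. The difference was 0.30 ± 0.11 against control (1.23-fold, adjusted p = 0.296) and 0.28 ± 0.11 against siRNA (adjusted p = 0.607). Without PIAS3 replicate 1 it was 0.22 and 0.20, neither under an unadjusted p of 0.05. Without either control array the difference from control (0.29 and 0.31) also missed that threshold. The difference from siRNA missed it without siRNA replicate 1 (0.22), from those groups alone (0.28), with the replicate block (0.28) and with arrays centred on their medians (0.27). SEL1L and EDEM1, which act in the same disposal route, differed by -0.01 and 0.06 with PIAS3. DNAJB9, the ER cochaperone that restrains IRE1, differed by 0.29 ± 0.13, or 0.17 without PIAS3 replicate 1. Its other, dimmer probe set differed by 0.43 (limma unadjusted p = 0.0256, adjusted p = 0.279). SDF2L1, a cofactor of BiP, differed by -0.34 ± 0.17. SDF2L1 read 7.91 in PIAS3 replicate 1 and 8.41 in replicate 2, against 8.60 and 8.41 in control, so its low mean came from the first array.

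XBP1 (Entrez gene 7494), the factor whose messenger IRE1 splices, read 8.50 and 8.58 in control, 8.34 and 8.47 with siRNA and 9.18 and 8.66 with PIAS3. Both PIAS3 arrays lay above the rest, replicate 1 by far the more. The difference was 0.38 ± 0.17 against control (adjusted p = 0.393) and 0.52 ± 0.17 against siRNA (1.43-fold, adjusted p = 0.607). Without siRNA replicate 1 the difference from siRNA was 0.45, no longer under an unadjusted p of 0.05. Without PIAS3 replicate 1 the differences from control and siRNA were 0.12 and 0.26, and without PIAS3 replicate 2 they were 0.64 and 0.78. Either omission leaves 1 PIAS3 array, so only the sizes are given. The arrays do not separate spliced from unspliced XBP1 messenger.

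DDIT3 (CHOP, Entrez gene 1649), the factor tied to cell death under ER stress, read 7.67 and 7.61 in control, 7.63 and 7.68 with siRNA and 8.19 and 7.67 with PIAS3. PIAS3 replicate 1 alone was high. The difference of 0.29 ± 0.17 (adjusted p = 0.519) was 0.03 without that array. The same array held the interferon-stimulated genes at a median of 3.81 above control, and the part of this in the XBP1, HERPUD1 and DDIT3 values was not tested.

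As a group, 1 of 19 ER members reached an unadjusted p under 0.05 with PIAS3, 0 with siRNA and 2 between the treatments. These are 5.26%, 0.00% and 10.5%, beside 14.6%, 5.37% and 8.02% of all genes. With siRNA the differences ran from -0.21 to 0.05, and all 19 intervals lay within 1.5-fold. With PIAS3 they ran from -0.34 to 0.38, and 15 of 19 lay within it. The median was -0.04 with PIAS3 and -0.05 with siRNA. Under the quantile and cyclic loess scalings the PIAS3 median was 0.01 and 0.04, so its sign has no meaning. The 9 ER members with an ERSE or ERSE-II had a PIAS3 median of -0.08 (range -0.34 to 0.38), and the 9 measured ER members without one in their window had 0.03. With siRNA these medians were -0.11 and -0.00. With PIAS3 against control, SDF2L1 was the lowest and XBP1 the highest of the genes with an element.

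The XBP1 and HERPUD1 promoters are printed because these were the ER members highest in PIAS3 relative to siRNA. The element listed above is in capitals.
HERPUD1, chr16:56931942-56932141, plus strand: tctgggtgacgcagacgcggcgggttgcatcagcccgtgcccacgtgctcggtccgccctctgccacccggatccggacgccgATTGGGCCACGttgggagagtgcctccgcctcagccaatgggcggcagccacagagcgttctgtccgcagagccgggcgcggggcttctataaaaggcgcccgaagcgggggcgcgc
XBP1, chr22:28800570-28800769, minus strand: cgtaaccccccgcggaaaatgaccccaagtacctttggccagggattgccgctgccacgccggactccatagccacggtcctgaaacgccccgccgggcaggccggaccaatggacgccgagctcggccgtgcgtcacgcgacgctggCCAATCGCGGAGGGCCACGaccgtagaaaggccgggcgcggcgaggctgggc

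Members with several probe sets allowed a second reading. A total of 32 other probe sets covered 21 of the 37 genes. With PIAS3 against control, 4 of the 32 were lower at an unadjusted p under 0.05 (12.5%, beside 9.34% of all 7101 such probe sets), 1 was higher (4.89% of such probe sets were), and 0 passed the adjusted threshold, the smallest adjusted p being 0.130. Against siRNA, 7 were lower (21.9% beside 6.15%) and 0 higher (beside 2.94%), with a smallest adjusted p of 0.607. The other probe set gave a lower PIAS3 difference than the brightest one of its gene in 24 of 32 cases (75.0% beside 56.9% for all genes) against control, and in 27 of 32 (84.4% beside 55.8%) against siRNA. With siRNA against control 1, of HSPD1, was higher, beside 2.01%. There the share below the brightest was 40.6% beside 50.1%.

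The examples are probe sets far from the brightest one, chosen after their values were seen. The dimmest of 3 CALR probe sets read 9.13 and 9.16 in control, 9.09 and 9.00 with siRNA and 8.23 and 8.68 with PIAS3, a PIAS3 difference of -0.68 against -0.24 for the brightest and -0.21 for the other. The other HSF1 probe set read 7.38 and 7.39, 7.51 and 7.49, and 6.75 and 7.18 in the same order, a difference of -0.42 against -0.02. Of 4 HSPA4 probe sets, one read 8.59 and 8.64, 8.48 and 8.05, and 8.12 and 8.05, a difference of -0.53 against 0.01 for the brightest, and the others gave -0.28 and -0.37. The dimmest of 4 HSP90AA1 probe sets read 12.29 and 12.49, 12.62 and 12.74, and 12.19 and 12.00, a difference of -0.30, where the brightest gave -0.08 and the others -0.04 and -0.09. In CALR, HSF1 and HSP90AA1 both PIAS3 arrays were below all 4 others. PIAS3 replicate 1 was the lowest array in CALR and HSF1. PIAS3 replicate 2 was the lowest in HSP90AA1 and, narrowly, in HSPA4. The gap between the 3′ and 5′ control probe sets of beta-actin, which widens as RNA degrades or labelling shortens, was 0.12 and 0.10 in control, 0.16 and 0.23 with siRNA and 0.43 and 0.28 with PIAS3. For GAPDH it was 0.36 and 0.29, 0.29 and 0.40, and 0.40 and 0.37. The part of RNA quality in these probe sets was not tested.

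**Figure D5:**
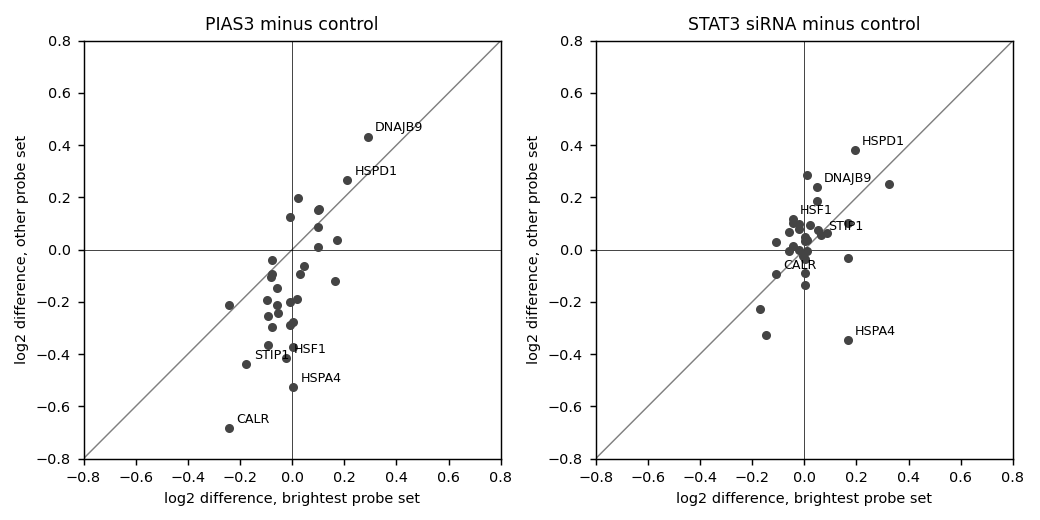
Log2 difference of each other probe set (y axis) against that of the brightest probe set of its gene (x axis), for PIAS3 and for STAT3 siRNA minus control, with the line of equality. In the PIAS3 panel 24 of 32 points lie below the line.

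Related genes of the same pathways gave 0 calls at the adjusted threshold. Among 41 other cytosolic chaperones and cochaperones, 3 were higher and 3 lower with PIAS3 at an unadjusted p under 0.05, and 0 with siRNA or between the treatments. The PIAS3 share was 14.6%, as over all genes. Over this list the differences from control ran from -0.40 to 1.42 with PIAS3 and from -0.31 to 0.75 with siRNA. The genes named next had the smallest p with PIAS3 and not the largest differences. The chaperonin subunit CCT2 read 12.52 and 12.52 in control, 12.25 and 12.33 with siRNA and 12.07 and 12.15 with PIAS3, a PIAS3 difference of -0.40 ± 0.10 (adjusted p = 0.159). All 4 transfected arrays were below both controls. The testis-type HSP70 genes HSPA1L and HSPA2 differed by 0.44 ± 0.13 and 0.40 ± 0.14, and the steroid receptor cochaperone FKBP5 by -0.32 ± 0.12. Of 9 other mitochondrial chaperones and proteases, 0 reached an unadjusted p under 0.05 in any comparison.

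Among 42 other ER folding and degradation genes, 2 were higher and 2 lower with PIAS3, 2 higher with siRNA, and 4 lower in PIAS3 than in siRNA. These are 9.52%, 4.76% and 9.52%, beside 14.6%, 5.37% and 8.02% of all genes. UGGT1, the glucosyltransferase that sends misfolded glycoproteins back to CALR and CANX, read 7.20 and 7.20 in control, 7.44 and 7.63 with siRNA and 7.66 and 7.78 with PIAS3. All 4 transfected arrays exceeded the controls, by 0.52 ± 0.11 with PIAS3 (adjusted p = 0.123) and 0.33 ± 0.11 with siRNA. The signal peptidase subunit SPCS3 differed by -0.43 ± 0.12 with PIAS3, RPN1 of the oligosaccharyltransferase by -0.36 ± 0.15, and PRKCSH of glucosidase II by 0.28 ± 0.11. Its catalytic partner GANAB differed by 0.29 ± 0.12 with siRNA.

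Of 26 sensors of the unfolded protein response and ATF4 branch genes, 7 were higher and 3 lower with PIAS3 at an unadjusted p under 0.05, 2 higher and 4 lower with siRNA, and 3 higher in PIAS3 than in siRNA. These are 38.5%, 23.1% and 11.5%, beside 14.6%, 5.37% and 8.02% of all genes. CTH, an enzyme of cysteine synthesis, read 4.72 and 5.07 in control, 5.41 and 5.78 with siRNA and 5.78 and 6.28 with PIAS3, a PIAS3 difference of 1.14 ± 0.21 (adjusted p = 0.0973). STC2, a secreted glycoprotein under ATF4, read 8.71 and 8.60, 7.96 and 8.17, and 7.94 and 7.93, a difference of -0.72 ± 0.12 (adjusted p = 0.0792). All 4 transfected arrays were above both controls for CTH and below them for STC2, so these ATF4-linked genes did not share a direction. DDIT4, an inhibitor of mTOR signalling, read 9.89 and 9.97, 10.07 and 10.04, and 10.47 and 10.45, a PIAS3 difference of 0.53 ± 0.10 (adjusted p = 0.0973). CEBPB, a partner of DDIT3, differed by 0.88 ± 0.17 with PIAS3 (adjusted p = 0.104). ATF3 read 8.92 and 8.88 in control, 6.53 and 6.27 with siRNA and 8.37 and 6.65 with PIAS3, a siRNA difference of -2.50 ± 0.47 (adjusted p = 0.442). The ATF3 values of the PIAS3 arrays lay far apart, and replicate 2 was near the siRNA arrays.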

How the data were processed

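RNA of A549 cells was hybridised to 6 Affymetrix arrays, 2 in each of 3 groups. The deposited table holds log2 expression values per probe set, made by the authors with RMA, per the submitters' processing notes; the sources used here do not give its version. RMA quantile-normalizes the arrays and compresses differences of dim probe sets. Of 22277 probe sets, 62 controls were left out and 22215 tested. Symbols came from the platform table: 19064 probe sets had 1 symbol, 1043 several and 2108 none. A gene was read from its brightest probe set with 1 symbol. HSPA8, planned for description, had only probe sets with several symbols.

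limma 3.58.1 (R 4.3.3) was fitted to all 6 arrays with group as the only term, followed by eBayes and Benjamini-Hochberg adjustment over all probe sets, threshold 0.05; the fit was tested on simulated data. Depth has no meaning for arrays; their number, 2 per group, limits the precision. Values in every array are given for members with an unadjusted p under 0.05 in any comparison and for HSPA5, HSP90AA1, HSPD1, HSF1, XBP1 and DDIT3; up to 4 genes with the smallest p were eligible from each list of other genes (cytosolic, mitochondrial, ER, and sensors with the ATF4 branch). HSPE1, SDF2L1 and the other probe sets were chosen for per-array values after their values were seen. Members and lists were chosen with earlier results of these data known. Scaling, filter, block, variance model, probe set rule and single arrays were varied. Promoter windows are RefSeq's (GRCh38.p14), those on chromosome 8 left out. Figures were drawn with matplotlib 3.10.9 (Python 3.11.15).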

Additional observations from a re-analysis of the deposited data

How the results depend on the processing

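With 2 arrays a group the fit has few degrees of freedom, and single arrays decided the counts of probe sets called by limma. PIAS3 against control gave 22 calls, and 2 with quantile normalization again, 2 with a filter on dim probe sets, 39 with cyclic loess, 40 with robust eBayes, 262 from those 2 groups alone, 254 at an adjusted p of 0.10, and 0 to 1232 without single arrays (0 without either control array, 2 without PIAS3 replicate 1, 262 without either siRNA array, 1232 without PIAS3 replicate 2). STAT3 siRNA against control gave 1, and 0 with quantile, 0 with cyclic loess, 3 from those 2 groups alone, and 0 to 5 without single arrays. PIAS3 against siRNA gave 0, and 0 to 544 without single arrays. Leaving out 1 array of a group assumes that its lone array varies like the other groups.

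Same-numbered arrays correlated by 0.09, -0.06 and -0.05 in their deviations, so the numbers were not taken as pairs. With the replicate number as a block, PIAS3 against control gave 2 calls, and members at an unadjusted p under 0.05 were 2 for siRNA against control, in place of 1.

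Members at an unadjusted p under 0.05 numbered 4 for PIAS3 against control (2 to 8 without single arrays), 1 for siRNA against control (3 with quantile, 2 with cyclic loess, 3 with an eBayes trend, 2 from those groups alone, 1 to 3 without single arrays) and 3 for PIAS3 against siRNA (0 to 7). Members passed the adjusted threshold only in fits without PIAS3 replicate 2. Such a fit leaves 1 array in the PIAS3 group, so its calls are not counted here.

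Medians without tests moved as follows. PIAS3 minus control: cytosolic 0.07 with quantile, 0.10 with cyclic loess, -0.09 with the mean of probe sets, -0.02 to 0.06 without single arrays; ER 0.01, 0.04, and -0.07 to 0.00. siRNA minus control without single arrays: cytosolic -0.02 to 0.06, mitochondrial 0.08 to 0.31, ER -0.10 to -0.04. PIAS3 minus siRNA: cytosolic -0.04 with quantile, 0.02 with cyclic loess, -0.15 with the mean of probe sets, -0.07 to 0.04 without single arrays; ER 0.13, 0.15, 0.05, and 0.02 to 0.11. Members near 0 changed sign. HSF1 minus control with PIAS3 was 0.02 with quantile, 0.05 with cyclic loess and -0.11 to 0.07 without single arrays. HSPA5 was 0.01, 0.04, and -0.20 to 0.12. With siRNA, HSP90AA1 was -0.01 with cyclic loess and -0.02 to 0.04 without single arrays, HSF1 -0.12 to 0.04, and DDIT3 -0.02 to 0.04. Between the treatments HSF1 was -0.07 to 0.11, HSPD1 -0.10 to 0.13 and HSPA5 -0.06 to 0.26. The causes were not tested. Counts of members under every setting were added after the data were seen.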
